A study of Mus musculus with 24 samples.

Results

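The Notch pathway genes described here are 10 of the 51912 genes counted by RNA-Seq: the receptors Notch1, Notch2 and Notch3, the ligands Dll1, Dll3 and Jag1, and the transcription factors Hes1, Hes5, Hes6 and Hey1. They were taken by gene symbol, and all 10 symbols had a row in each count table. Expression was measured in 9 libraries, 3 from ESCs, 3 from NPs and 3 from TET TKO ESCs. ESCs were wild-type mouse TC-1 cells (C57BL/6 X 129S5) kept with LIF on gelatin. NPs (neuronal progenitors) came from wild-type ESCs of the same background, aggregated in suspension without LIF, exposed to 5 µM retinoic acid for the last 4 days and collected at day 8 as whole, unsorted aggregates. TET TKO ESCs were undifferentiated ESCs with a TET1/2/3 triple knockout (C57BL/6 X 129/sv), a separate line of another background, so genotype cannot be told apart from line and strain in any comparison with it.

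Notch signalling passes between cells that touch. A ligand of the Delta-like (Dll) or Jagged (Jag) family on one cell binds a Notch receptor on its neighbour, the receptor is cleaved by an ADAM protease and then by γ-secretase, and the freed intracellular domain joins the DNA-binding protein RBPJ in the nucleus to switch on Hes and Hey genes. In the embryonic nervous system, HES1 and HES5 repress proneural factors such as NEUROG2 and keep cells in the progenitor state, while cells with high proneural activity express Dll1 and Dll3 and become neurons. DLL3 acts mainly inside the cell that makes it, and HES6 opposes HES1 and favours neuronal differentiation.

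Hes5 showed the greatest contrast between ESCs and NPs of the 10 genes, and the DNA just before its start site is shown first because it holds the word to which RBPJ is known to bind. The window of Dll1 is shown beside it because it holds a word that HES proteins bind. Each run is the 250 bases before the RefSeq start on GRCm38.p6, on the strand of the gene, at chr4:154960673-154960922 (plus strand) for Hes5 and chr17:15376933-15377182 (minus strand) for Dll1. Capitals mark TGGGAA, or TTCCCA where the word lies on the other strand, in Hes5, and CACGCG in Dll1.
Hes5: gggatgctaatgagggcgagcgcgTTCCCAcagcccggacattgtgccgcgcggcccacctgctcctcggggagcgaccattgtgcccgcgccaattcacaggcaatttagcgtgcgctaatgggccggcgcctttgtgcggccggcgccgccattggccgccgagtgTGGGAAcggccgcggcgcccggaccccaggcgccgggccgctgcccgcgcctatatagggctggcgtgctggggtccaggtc
Dll1: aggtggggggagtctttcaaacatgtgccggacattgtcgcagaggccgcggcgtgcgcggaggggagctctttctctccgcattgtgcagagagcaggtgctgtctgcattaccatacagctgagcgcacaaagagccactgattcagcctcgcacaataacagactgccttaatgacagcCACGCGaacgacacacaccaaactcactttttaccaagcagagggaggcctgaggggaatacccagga

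RefSeq windows from 250 bases before to 50 after the start were found for 8 of the 10 genes (10 windows, since Dll1 and Hes6 each had a pair) and not used for Hes1 and Hey1. The RBPJ core TGGGAA, searched on both strands, was present in 25.6% of all 32851 windows, and 3.79% held it at least 2 times. Among the Notch genes it was found in Hes5 alone, starting at −82 from the RefSeq start on the gene's strand and at −226 on the other strand. Both matches extend to GTGGGAA, which 6.38% of all windows held, and 0.256% held it at least 2 times. The class C word CACGCG, which HES and HEY proteins can bind, was present in 9.27% of windows and in those of Jag1 and Notch2. Of the 2 windows of Dll1, the one shown held it, at −68, and the other, at chr17:15375774-15376073, did not. CACGCG and TGGGAA do not overlap each other in these windows. Such matches describe letters and not occupied sites.

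The libraries held 20570050 to 23976914 counts in ESCs, 20519702 to 22132988 in NPs and 80704741 to 93210102 in TET TKO ESCs, so the last group was measured with less counting error. Tet1 and Tet2 were lower in TET TKO ESCs than in ESCs by 4.84-fold and 7.70-fold (both called by the rule given next), and Tet3 was under 1 RPKM in every library of both groups. All 9 ESC markers were called lower in NPs, where their summed level was 8.22 to 30.1 RPKM against 2511 to 2592 RPKM in ESCs. All 8 neural progenitor markers were called higher in NPs, with summed levels of 245 to 402 RPKM against 14.9 to 16.4 RPKM, and 4 of them (Sox1, Pax6, Fabp7 and Pou3f2) passed the filter on low values (also given next) only through NP libraries and so had to differ. Of 7 neuron markers 5 were called higher in NPs (Dcx, Elavl3, Elavl4, Map2 and Nhlh1, all but Elavl3 having passed only through NP libraries) and Stmn2 was called lower, with summed levels of 88.4 to 214 RPKM in NPs and 121 to 137 RPKM in ESCs. The part of neurons in the differences of the Notch genes was not tested. Of 8 endoderm markers 4 were called higher in NPs (Gata6, Sox17, Foxa2 and Ttr), all 4 having passed the filter only through NP libraries, and the summed level of this list was 23.9 to 27.4 RPKM in NPs against 2.03 to 3.61 RPKM in ESCs. Presomitic mesoderm markers, for the other embryonic tissue best known for Notch, summed to at most 1.88 RPKM in NPs, with Msgn1 at 0, and all 8 endothelial markers averaged under 1 RPKM there.

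RPKM (reads scaled by gene length and by library size, the latter adjusted by TMM) were used for levels. A gene was called higher or lower when edgeR's quasi-likelihood F-test gave an adjusted p under 0.001 and the groups differed by 3-fold or more. Both limits follow the study's methods. Genes entered a test when at least 1 library of the pair of groups reached 1 RPKM. Hes5 passed that filter only through the NP libraries and so had to differ, while the other 9 genes also reached 1 RPKM in at least 1 ESC library.

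With differentiation, 5 of the 10 Notch genes rose past these limits and 0 fell: Dll1, Dll3, Hes5, Hes6 and Hey1. Of all 15197 genes tested, 12.4% were called higher and 9.98% lower. At an adjusted p under 0.05 with no fold limit, 9 Notch genes were higher in NPs and 0 lower, against 32.9% and 31.2% of all genes. For all 10 genes the lowest NP library was above the highest ESC library, a pattern seen in 36.3% of the genes tested, and the reverse, seen in 35.6%, occurred in 0 of them. The median log2 fold change was 2.24 over the 10 genes and 0.037 over all genes tested. In bulk RNA, fewer cells of a type and less RNA per cell cannot be told apart.

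**Figure D1:**
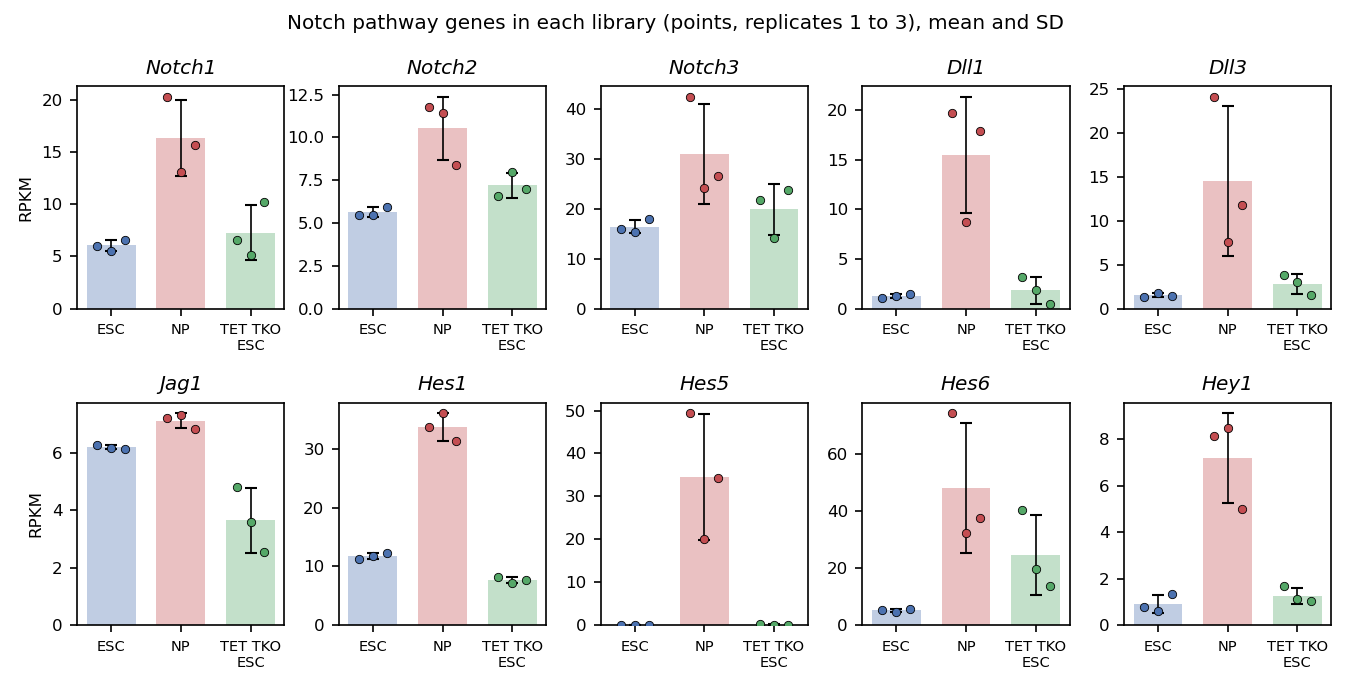
RPKM of the 10 Notch genes in each library, one panel a gene with its own axis from 0; points are replicates 1 to 3 from left to right, bars the group mean and error bars the SD. All 3 NP points lie above all 3 ESC points in every panel, and Hes5 lies between 20.1 and 49.4 RPKM in NPs and at or below 0.181 RPKM in the other groups.

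None of the 3 receptors passed both limits. Notch1, the receptor best known in neural stem cells, had 5.99, 5.52 and 6.60 RPKM in ESCs and 20.3, 13.0 and 15.7 RPKM in NPs. It was 2.70-fold higher in NPs (log2 fold change 1.44 ± 0.17 SE, adjusted p = 0.000143), which passed the p limit but not the fold limit. Notch2 read 5.46, 5.45 and 5.95 RPKM in ESCs and 11.8, 11.5 and 8.41 RPKM in NPs. Its NP libraries were all above its ESC libraries, with a log2 fold change of 0.90 ± 0.14 (adjusted p = 0.000555). Notch3 was the most abundant receptor per length throughout, with 15.9, 15.4 and 17.9 RPKM in ESCs against 42.6, 24.1 and 26.6 RPKM in NPs. The log2 fold change of Notch3 was 0.92 ± 0.21 with an adjusted p of 0.00473, short of both limits.

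The Delta-like ligands rose and the Jagged ligand did not pass the test. Dll1, the ligand that committed neural precursors present to their neighbours, was detected at 1.05, 1.30 and 1.49 RPKM in ESCs and at 19.7, 8.75 and 17.9 RPKM in NPs. Even the lowest NP library was several times the highest ESC library, and the fitted change was 12.1-fold (log2 3.59 ± 0.33, adjusted p = 3.24e-05). Dll3 had 1.29, 1.77 and 1.44 RPKM in ESCs and 24.1, 7.61 and 11.8 RPKM in NPs. The NP libraries of Dll3 differed from each other by 3.17-fold, the widest spread of any of the 10 genes in NPs, around a change of 9.67-fold (log2 3.27 ± 0.42, adjusted p = 0.000199). Without ESC replicate 1 or ESC replicate 3 the adjusted p of Dll3 was 0.00134 or 0.00184, so its call was lost there while the log2 fold change stayed at 3.18 or 3.25. Jag1 was almost level, at 6.27, 6.18 and 6.13 RPKM in ESCs and 7.23, 7.32 and 6.82 RPKM in NPs, with a log2 fold change of 0.20 ± 0.12 and an adjusted p of 0.16.

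Among the HES and HEY factors, Hes5 went from near absence to the level of Hes1. Its ESC libraries held 0, 3 and 2 counts, or 0, 0.101 and 0.0597 RPKM, and its NP libraries 1435, 664 and 1080 counts, or 49.4, 20.1 and 34.2 RPKM. In the ESC library without a count, 3 counts, the limit that a count of 0 allows, would be 0.103 RPKM. From the summed counts of 5 in ESCs and 3179 in NPs the level in NPs was 626 times that in ESCs, with an exact 95% interval of 268 to 1929 that covers counting error only. Hes5 was called higher (adjusted p = 5.39e-06), and its fitted log2 fold change of 9.22 ± 0.60 depends on the small count that edgeR adds to libraries near 0. The gene lies on chromosome 4 from 154960923 to 154962371 (GRCm38, plus strand), and 31.8% of its counted length is shared with the antisense gene Gm20421, whose own counts were 0 to 13 in the 9 libraries. Reads of such a pair cannot be told apart in counts made without strand. The same holds for 20.6% of the length of Dll1, shared with A930024N18Rik (0 to 12 counts). Notch1, Notch2 and Notch3 share smaller parts of their length, 9.76%, 5.02% and 6.07%, with other counted genes. Whether reads that overlap both genes of a pair were counted is not given in the sources used here. If they were left out, the RPKM of Hes5, Dll1 and these receptors, computed over the full length, are too low. On GRCm38, Dll1 lies at chr17:15367354-15376872, Dll3 at chr7:28293553-28302238, Hes6 at chr1:91411483-91414038 and Hey1 at chr3:8663359-8667256, all on the minus strand, and Dll3, Hes6 and Hey1 share no exon bases with another counted gene.

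Hes1, the other main effector of Notch in neural progenitors, was already present in ESCs at 11.2, 11.7 and 12.3 RPKM and had 33.8, 36.2 and 31.4 RPKM in NPs. Both groups were tight, and the difference of 2.88-fold (log2 1.52 ± 0.12, adjusted p = 1.33e-05) fell just under the fold limit. When library sizes were used without TMM the log2 fold change of Hes1 was 1.599 and the gene was called. Hes6 had 5.35, 4.43 and 5.56 RPKM in ESCs and 74.5, 32.3 and 37.6 RPKM in NPs, where it was the most abundant of the 10 genes on average. It was 9.40-fold higher in NPs (log2 3.23 ± 0.33, adjusted p = 5.31e-05). Hey1, a repressor related to the HES proteins, had 0.792, 0.617 and 1.35 RPKM in ESCs and 8.14, 8.49 and 4.98 RPKM in NPs, a change of 7.77-fold (log2 2.96 ± 0.34, adjusted p = 0.000104).

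**Figure D2:**
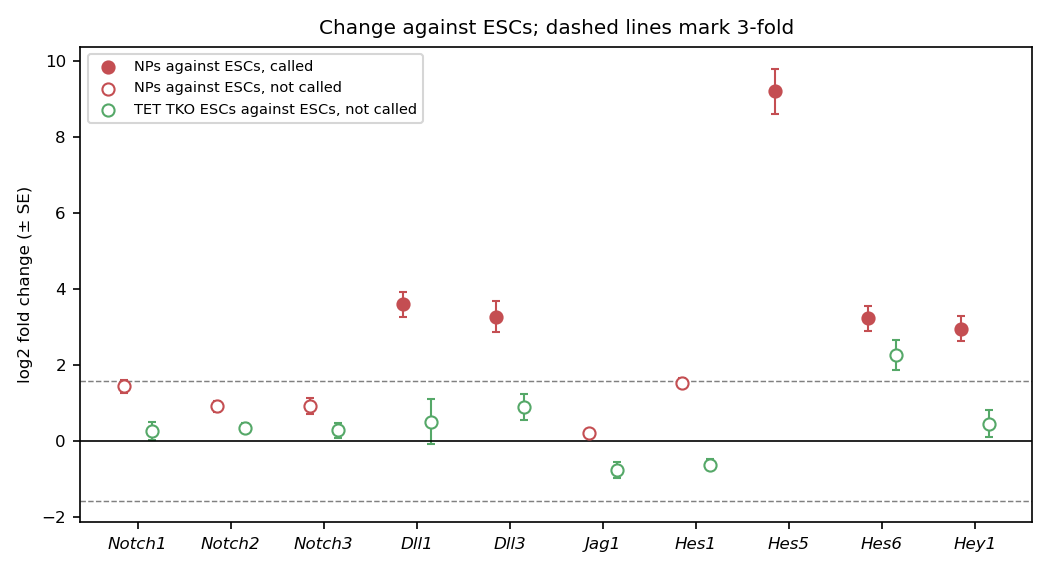
Log2 fold change (± SE) against ESCs of the 10 Notch genes in NPs and in TET TKO ESCs; filled symbols are called, open symbols are not, dashed lines mark 3-fold, and Hes5 has no TET TKO value because it was below the filter. In NPs 5 genes lie above the upper dashed line and pass the p limit, and in TET TKO ESCs the fitted change of Hes6, 2.25, lies above that line without a call.

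The order of the 10 genes by level differed between the groups. In ESCs Notch3 (mean 16.4 RPKM) stood above Hes1 (11.7 RPKM), and both were apart from the rest. Jag1, Notch1, Notch2 and Hes6 followed at 6.19, 6.04, 5.62 and 5.11 RPKM, and each overlapped its neighbour in this order. Dll3, Dll1 and Hey1 came next at 1.498, 1.28 and 0.918 RPKM, again with overlapping libraries, and Hes5 was last and apart at 0.0535 RPKM. In NPs Hes6, Hes5, Hes1 and Notch3 led at 48.1 ± 23.0, 34.6 ± 14.7, 33.8 ± 2.37 and 31.1 ± 10.03 RPKM (SD, n = 3), each overlapping the next. Jag1 had the lowest mean there, 7.12 ± 0.264 RPKM, but its libraries overlapped those of Hey1 (mean 7.20 RPKM). By the study's limit for high expression, a mean log2(1 + RPKM) of at least 1, 8 of the 10 genes were expressed in ESCs (all but Hey1 and Hes5), 10 in NPs and 9 in TET TKO ESCs (all but Hes5).

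The make-up of each gene family shifted as well, described here as the share of the family's summed RPKM in each library. These shares are given as a description, with no test. Among the 4 receptor genes, Notch3 made up 49.7 ± 0.580% in ESCs and 52.1 ± 3.62% in NPs (SD, n = 3), with overlapping libraries. Notch1 went from 17.6 to 18.7% in ESCs to 26.5 to 30.3% in NPs. Notch4, a receptor known mainly from blood vessels, made up 14.4 to 15.9% in ESCs and 1.35 to 2.08% in NPs. Dll1, Dll3 and Dll4 together gave 13.4 to 17.6% of the ligand RPKM in ESCs and 53.8 to 73.9% in NPs, and Jag2, the leading ligand of ESCs at 47.4 to 54.1%, gave 14.5 to 24.1% in NPs. The summed ligand level was 18.5 ± 1.29 RPKM in ESCs and 46.6 ± 14.7 RPKM in NPs. In the HES and HEY family Hes1 held 62.1 to 67.9% of the RPKM in ESCs, whereas in NPs Hes6, Hes1 and Hes5 held 30.8 to 42.2%, 19.1 to 34.5% and 19.1 to 29.4%. The Hes5 to Hes1 ratio in the NP libraries was 1.46, 0.554 and 1.09, so neither gene was the more abundant in all 3.

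**Figure D3:**
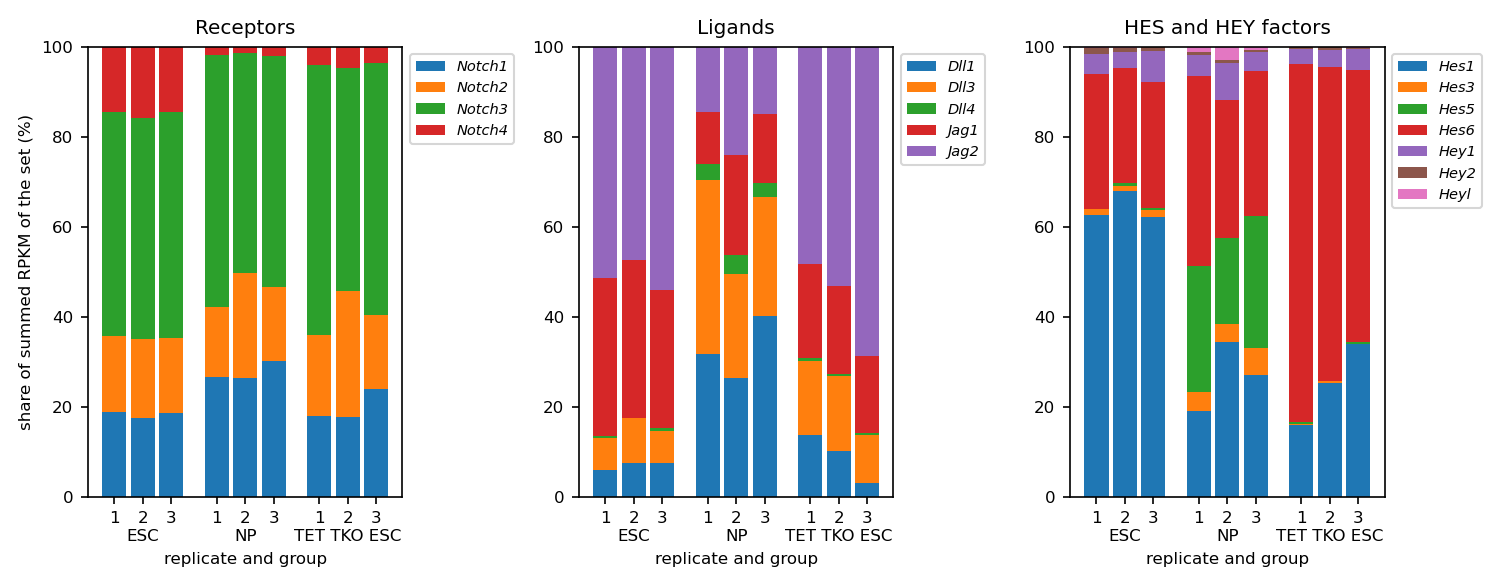
Share (%) of each gene in the summed RPKM of the receptors, ligands and HES and HEY factors, one bar per library (replicates 1 to 3 of ESC, NP and TET TKO ESC). The Delta-like ligands widen from at most 17.6% in ESCs to at least 53.8% in NPs, Hes5 appears in NPs, and Hes6 fills 60.5 to 79.8% of the HES and HEY sum in TET TKO ESCs.

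Beyond the 10 genes, 54 other genes of the pathway were listed by role, of which 48 could be tested in NPs against ESCs. In this wider list 15 rose and 2 fell, and 31 did not pass the test, where 12.4% of all genes tested were called higher and 9.98% lower. Of the 15, 13 passed the filter on low values only through NP libraries and so had to differ, the exceptions being Lfng and Dlk1. The median log2 fold change over the 48 genes was 0.86, beside 0.037 over all genes tested. Over all 54 genes, tested or not, the libraries of the groups did not overlap for 30 with NPs above and for 9 with NPs below, patterns seen in 36.3% and 35.6% of all genes tested.

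The other receptors and ligands split in direction. Dll4, a Delta-like ligand, had 0.0610, 0.0357 and 0.0950 RPKM in ESCs and 2.14, 1.45 and 1.38 RPKM in NPs (log2 fold change 4.65 ± 0.42, adjusted p = 2.75e-05). From 17 summed counts in ESCs and 435 in NPs the ratio of Dll4 was 25.2, with an exact 95% counting interval of 15.6 to 43.7. Dlk1, a non-canonical ligand, and Dner, a neuronal transmembrane protein reported as a Notch ligand, rose with log2 fold changes of 3.93 ± 0.35 and 2.34 ± 0.40. Dll4 and Dner passed the filter on low values only through NP libraries and so had to differ. Notch4 fell by 2.26 ± 0.25 on the log2 scale (adjusted p = 9.04e-05), from 4.599, 4.97 and 5.16 RPKM to 1.33, 0.664 and 1.08 RPKM. Jag2 had 9.17, 8.36 and 10.8 RPKM in ESCs and 9.003, 7.96 and 6.65 RPKM in NPs, and the groups overlapped (log2 fold change −0.27 ± 0.15, adjusted p = 0.154).

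Genes for glycosylation, cleavage and turnover of the receptor were called in 1 of 6, 1 of 9 and 2 of 12 tested cases, beside 12.4% of all genes tested called higher and 9.98% lower. Of 6 glycosylation genes, Lfng, a Fringe enzyme whose sugars favour Delta-like over Jagged ligands, was the 1 called, with 1.88, 1.96 and 2.32 RPKM in ESCs and 26.8, 10.7 and 19.9 RPKM in NPs (log2 fold change 3.22 ± 0.34, adjusted p = 6.45e-05). Of 9 tested cleavage genes, Aph1b, a γ-secretase subunit, rose (log2 2.59 ± 0.37), and the other 8, among them Adam10 at 1.47 ± 0.15, did not pass the fold limit. In the group for endocytosis and turnover 1 of 12 rose and 1 fell. Dtx4, a Deltex ubiquitin ligase, went from 0.864, 0.826 and 0.981 RPKM to 123, 59.9 and 109 RPKM, a level above that of every receptor, with a log2 fold change of 6.77 ± 0.32. Its relative Dtx1 fell by 2.56 ± 0.43 on the log2 scale, from 4.601, 3.94 and 8.22 RPKM to 1.32, 1.11 and 0.434 RPKM. Aph1b and Dtx4 passed the filter on low values only through NP libraries and so had to differ.

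In the nuclear complex 2 of 7 genes rose, the coactivators Maml3 (log2 fold change 6.87 ± 0.31) and Maml2 (1.98 ± 0.25). Maml3 had 0.0717, 0.0742 and 0.0776 RPKM in ESCs and 12.3, 7.05 and 7.01 RPKM in NPs, and Maml1, expressed in both, differed by 0.85 ± 0.10 with no call. Rbpj, through which all 4 receptors act, had 11.9, 12.5 and 10.03 RPKM in ESCs and 4.13, 3.86 and 4.10 RPKM in NPs. Its libraries did not overlap, but the difference of 2.85-fold (log2 −1.51 ± 0.12, adjusted p = 1.57e-05) was just under the fold limit. Further Notch targets had 3 of 4 tested genes called higher, namely Heyl (6.02 ± 0.74), Hes3 (4.59 ± 0.36) and Nrarp (4.04 ± 0.40). All 4 tested targets, like Maml2 and Maml3, passed the filter on low values only through NP libraries and so had to differ. Over all genes tested, 12.4% were called higher. Nrarp, which feeds back on the receptor's intracellular domain, had 0.346, 0.337 and 0.599 RPKM in ESCs and 10.1, 4.46 and 6.70 RPKM in NPs. Heyl had 10 summed counts in ESCs against 699 in NPs, a ratio of 68.8 (exact 95% counting interval 37.2 to 144).

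HES proteins repress proneural factors such as NEUROG2, which in turn drive Dll1. In the list of proneural factors 4 of 5 tested genes rose: Neurog2, Neurod4, Neurog1 and Insm1. All 4 passed the filter on low values only through NP libraries and so had to differ, and 12.4% of all genes tested were called higher. Neurog3 and Atoh1 were below the filter. Neurog2 had 1 count in each ESC library and 1407, 1061 and 1283 counts in NPs, or 29.7, 19.6 and 24.9 RPKM, with a ratio of summed counts of 1231 (exact 95% counting interval 421 to 5972). Neurod4 had 0, 0 and 1 counts in ESCs and 592, 260 and 473 in NPs, a ratio of 1304 with a wide interval of 234 to 51560. Neurod1, the remaining tested factor, had 8.46, 3.20 and 5.17 RPKM in NPs against 1.74 to 2.99 RPKM in ESCs and no call (log2 fold change 1.20 ± 0.37, adjusted p = 0.0202).

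**Figure D4:**
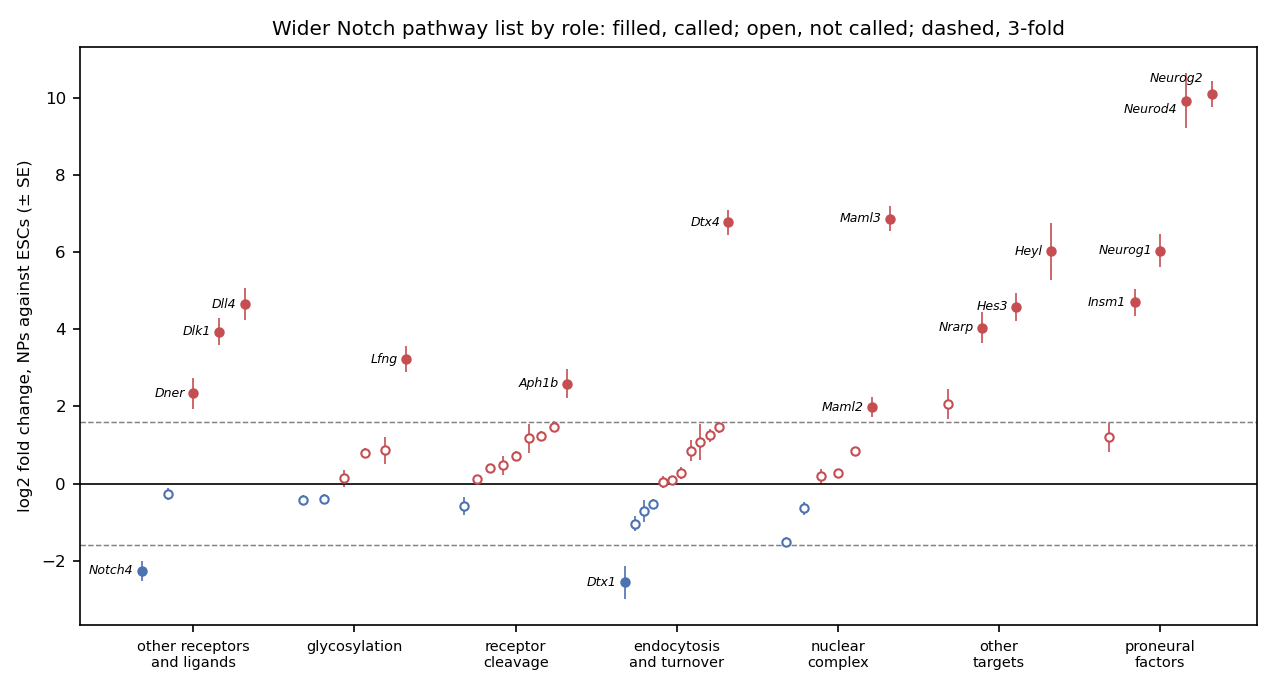
Log2 fold change (± SE), NPs against ESCs, of the 48 tested genes of the wider pathway list, grouped by role; filled points are called and named, open points are not called, and dashed lines mark 3-fold. Of the filled points, 15 lie above 0 and 2, Notch4 and Dtx1, below.

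The NP libraries were not alike, and the Notch genes moved with the library. NP replicate 1 was highest for 7 of the 10 genes (Notch1, Notch2, Notch3, Dll1, Dll3, Hes5 and Hes6), and NP replicate 2 was lowest for 6 of them (Notch1, Notch3, Dll1, Dll3, Hes5 and Hes6). The exceptions were Jag1, Hes1 and Hey1, each highest in replicate 2 and lowest in replicate 3. Hes1 and Jag1 varied by 1.15-fold and 1.07-fold between NP libraries, Dll1, Hes5 and Hes6 by 2.26-fold, 2.47-fold and 2.31-fold. All 7 proneural factors were highest in replicate 1, and 5 of them were lowest in replicate 2. The other 2, Neurog3 and Atoh1, were near the floor in NPs, with 20, 16 and 14 counts and 27, 5 and 0 counts. The share of all genes highest in replicate 1 is not given here, so these orders cannot be read as particular to the genes listed. Of the 8 neural progenitor markers 6 were highest in replicate 1 and 6 lowest in replicate 2, with sums of 402, 245 and 280 RPKM in replicates 1, 2 and 3. Replicate 2 also had the lowest value of all 7 neuron markers, whose sum was 214, 88.4 and 162 RPKM in replicates 1, 2 and 3, and the highest sum of ESC markers, 30.1 RPKM against 12.3 and 8.22 RPKM. The part of cell composition in the spread of the Notch genes was not tested.

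**Figure D5:**
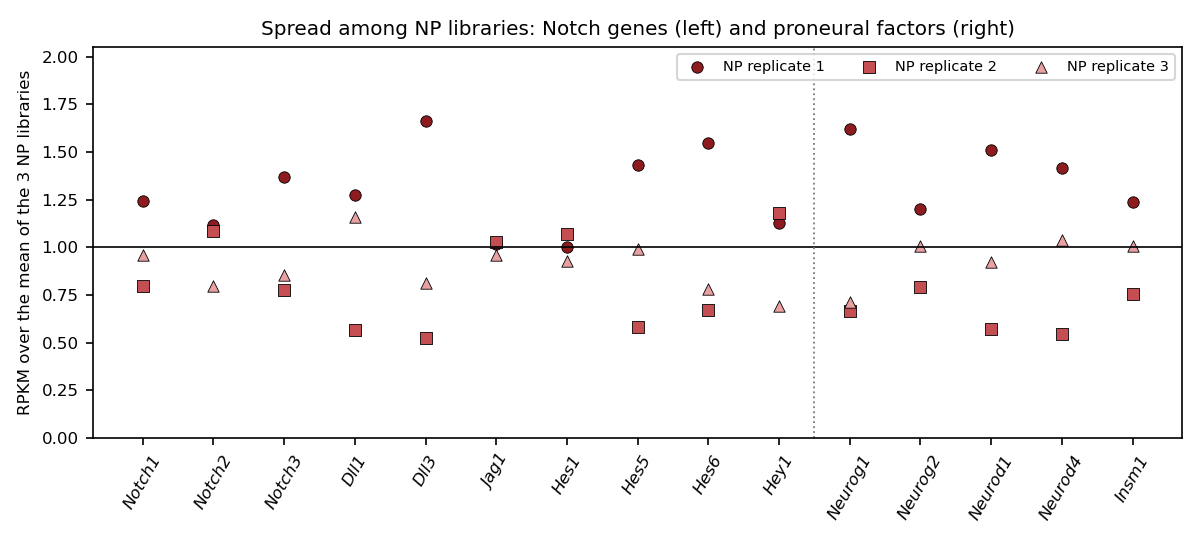
RPKM in each NP library divided by the mean of the 3 NP libraries, for the 10 Notch genes (left of the dotted line) and the 5 proneural factors with a mean of at least 1 RPKM (right). Replicate 1 (circles) tops 7 Notch genes and all the proneural factors shown, whereas Hes1 and Jag1 stay close to 1 in all 3 libraries.

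By the rule of the smallest Euclidean distance in log2(1 + RPKM) over the 9 libraries, among 15614 tested genes, the nearest to Hes5 were Msx3, Ednrb and D930007P13Rik at distances of 0.588, 0.589 and 0.764. Their mean levels in NPs were 40.7, 33.5 and 26.1 RPKM, against 34.6 RPKM for Hes5. Nearest to Hes1 were Alg2, Tpgs1 and Slc39a6 (0.576, 0.599 and 0.632), and nearest to Hey1 were Plekhh3, Ltbp3 and Kctd1 (0.489, 0.667 and 0.677). None of these 9 genes belongs to the lists used here.

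In TET TKO ESCs 0 of the 9 tested Notch genes were called higher and 0 lower, where 1.1% and 1.21% of 13939 genes were. At an adjusted p under 0.05 with no fold limit, edgeR put 2 of the 9 higher (Notch2 and Hes6) and 2 lower (Jag1 and Hes1), against 22.8% and 12.7% of all genes. DESeq2 called 1 of the 9, Hes6. The TET TKO libraries were all above the ESC libraries for 2 of the 10 genes and all below for 2, a pattern seen in 32.2% and 19.6% of all genes tested. This comparison uses the same ESC libraries as that of NPs, so the results of both are not independent. TMM scaling moved the median log2 fold change of all genes from −0.046 to 0.12, a shift of 0.17, and small differences should be read against it.

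Hes6 stood out among the Notch genes of TET TKO ESCs. It had 40.6, 19.5 and 13.7 RPKM there, all above the 4.43 to 5.56 RPKM of ESCs and varying by 2.97-fold between libraries. The fitted change was 4.77-fold (log2 2.25 ± 0.39, or 2.13 above the median of all genes), with an adjusted p of 0.00417 that missed the limit of 0.001. With DESeq2, without the filter on low counts, or with the replicate number as a block, the adjusted p was 5.89e-08, 2.35e-06 or 0.000684 and Hes6 was called.

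Hes1 and Jag1 were lower in TET TKO ESCs without reaching 3-fold. Hes1 had 8.16, 7.09 and 7.64 RPKM there against 11.2, 11.7 and 12.3 RPKM in ESCs, with no overlap and a log2 fold change of −0.63 ± 0.13 (adjusted p = 0.0098). Jag1 had 4.82, 3.58 and 2.54 RPKM against 6.13 to 6.27 RPKM (log2 fold change −0.77 ± 0.22, adjusted p = 0.0298). The opposite held for Notch2, at 6.58, 8.004 and 6.99 RPKM, whose log2 fold change of 0.35 ± 0.11 had an adjusted p of 0.0428.

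Values for the other receptors, ligands and Hey1 overlapped between TET TKO ESCs and ESCs. Notch1 had 6.52, 5.08 and 10.2 RPKM (log2 fold change 0.26 ± 0.24) and Notch3 21.8, 14.1 and 23.8 RPKM (0.27 ± 0.19). Dll1 had 3.18, 1.85 and 0.442 RPKM, a range of 7.18-fold that straddled the ESC libraries (0.50 ± 0.60). Leaving out TET TKO replicate 1 turned the log2 fold change of Dll1 to −0.18, and leaving out replicate 3 turned that of Notch1 to −0.065. Dll3 had 3.77, 3.07 and 1.57 RPKM (0.90 ± 0.34, adjusted p = 0.0729), and Hey1 had 1.66, 1.11 and 1.03 RPKM (0.45 ± 0.36, adjusted p = 0.353). Hes5 held 19, 3 and 8 counts, or 0.181, 0.0308 and 0.0681 RPKM, below the filter. Its ratio to ESCs was 1.73 with an exact 95% counting interval of 0.665 to 5.71, so no difference was detectable at this depth.

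Dll1, Dll3, Jag1, Hes6 and Hey1 were each highest in TET TKO replicate 1 and lowest in replicate 3, while Notch1 and Notch3 were highest in replicate 3. Insm1, a zinc-finger factor of neuronal and endocrine precursors, followed the same order with 6.69, 5.08 and 1.04 RPKM against 0.210 to 0.487 RPKM in ESCs (log2 fold change 3.49 ± 0.70, adjusted p = 0.00764). Insm1 passed the filter on low values only through TET TKO libraries and so had to differ. Of the 8 neural progenitor markers 7, Sox1 and Sox3 among them, were also lowest in replicate 3. Of the 8, 3 were highest in replicate 1 and 5, Sox1 among them, in replicate 2, and 3 averaged under 1 RPKM. The summed level of that list was 30.6, 29.0 and 20.6 RPKM, above the at most 16.4 RPKM of ESCs. Of these 8 markers 5 could be tested in TET TKO ESCs, and edgeR called 0, where 1.1% of all genes tested were called higher. At an adjusted p under 0.05 with no fold limit, it put 2, Sox1 and Nes, higher, beside 22.8% of all genes. Sox1 passed the filter on low values only through TET TKO libraries and so had to differ. The summed level of the 7 neuron markers went the other way, at 71.6, 93.05 and 49.5 RPKM against 121 to 137 RPKM in ESCs. Of these 7, 3 lay above all ESC libraries and 2, Tubb3 and Stmn2, below, patterns seen in 32.2% and 19.6% of all genes tested. Of the 7 proneural factors, 4, Insm1 among them, were lowest in TET TKO replicate 3, and 2, Neurog1 and Neurod4, were highest there. The share of all genes with such orders is not given here, so they cannot be read as particular to the genes listed. The part of neural cells in the values of Hes6 and the ligands was not tested.

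Of the wider list 37 genes could be tested in TET TKO ESCs, and 0 rose and 1 fell, where 1.1% and 1.21% of all genes tested did. The single call was Notch4, with 1.47, 1.32 and 1.54 RPKM against 4.599 to 5.16 RPKM in ESCs (log2 fold change −1.77 ± 0.13, adjusted p = 0.00016). Notch4 thus made up 3.62 to 4.64% of the receptor RPKM in TET TKO ESCs. Its call was lost without ESC replicate 1, 2 or 3 or TET TKO replicate 1 (adjusted p = 0.00215, 0.00217, 0.00134 and 0.0011) and was kept without TET TKO replicate 2 or 3 (adjusted p = 0.000599 and 0.000247), while its log2 fold change stayed between −1.82 and −1.71. Rbpj had 11.7, 15.1 and 16.4 RPKM (log2 fold change 0.32 ± 0.15, adjusted p = 0.129) and Lfng 2.87, 4.66 and 4.41 RPKM (0.95 ± 0.24, adjusted p = 0.02). The median log2 fold change over the 37 genes was 0.16, beside 0.12 over all genes tested and 0.35 over the 9 Notch genes.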

How the data were processed

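RNA was measured by RNA-Seq (polyA-selected, stranded kit, single-end reads of 50 bp). The authors trimmed the reads with Trimmomatic 0.38, mapped them with STAR 2.6.1b to GRCm38 and deposited raw counts per gene from featureCounts v1.6.2 with Ensembl 89 gene models, without strand. The gene lengths in the same tables were used for RPKM. The methylation tables of the series were not used here.

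Counts were scaled by TMM and tested with edgeR 4.0.16 in R 4.3.3 (quasi-likelihood F-test, 3 against 3 libraries, Benjamini-Hochberg adjustment over all genes tested). SEs are the log2 fold change divided by the square root of F. The test was checked on simulated data with 8-fold changes in 200 genes. It called 100% of them in the NP setting and 99.5% in the TET TKO setting, with 0 false calls. The simulated spread was the same for all genes and smaller than that of every Notch gene called in NPs. The SD of these genes in NPs was 26.8% (Hey1) to 59.1% (Dll3) of the mean. It was also smaller than that of Hes6 in TET TKO ESCs, where the SD was 57.5% of the mean. The check therefore does not cover calls of genes with so wide a spread. DESeq2 1.42.0 was an alternative, beside those in the closing section. Python 3.11.15, scipy 1.17.1, pandas 2.3.3 and matplotlib 3.10.9 served for the rest.

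The methods call the replicates biological. P-values set the difference between groups against the spread between these libraries. No 2 libraries of a group differed by less than counting noise. ESC replicates 1 and 2 came closest to it, with a chi-square of their counts of 2.37 per degree of freedom. The other ESC pairs had 14.0 and 19.7, NP pairs 39.5 to 67.9 and TET TKO pairs 109 to 194. The 10 genes, the lists and the tests were chosen with earlier results of these data known. A result on 1 further gene is not reported here. Of the wider list, up to 3 called genes per role and direction were named, plus Rbpj, Notch4, Dll4, Jag2, Nrarp, Lfng and Neurog2; other genes, such as Adam10 and Maml1, were named after their values were seen. Promoter sequences are from RefSeq (GRCm38.p6).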

Additional observations from a re-analysis of the deposited data

How the results depend on the processing

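In NPs against ESCs, 5 Notch genes were called higher in the reported fit, 6 without TMM, 4 with at least 10 counts in every library (Hes5 then could not be tested), 4 to 5 when a library was left out, and 9 at an adjusted p under 0.05 with no fold limit. For the wider list, the counts of 15 higher and 2 lower became 9 and 1 with at least 10 counts, 28 and 9 at the looser limit, 1 lower without TMM, and 12 to 16 higher and 1 to 2 lower with a library left out. Over all genes, 1891 higher and 1517 lower became 4996 and 4738 at the looser limit, with 2588 lower without the filter and 842 lower with at least 10 counts; with a library left out they were 1391 to 1841 and 1073 to 1572.

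In TET TKO ESCs against ESCs, the 0 Notch genes called higher became 1 (Hes6) with DESeq2, with no filter or with the replicate block, and 2 at the looser limit, where 2 were lower; 0 were called with any library left out. The wider list had 0 higher and 1 lower, against 2 higher with DESeq2, 3 with no filter, 1 with all 3 groups in one fit, 6 higher and 2 lower at the looser limit, and 0 to 1 in either direction with a library left out. Over all genes, 153 higher and 169 lower became 404 and 506 with DESeq2, 574 and 689 with no filter, 3183 and 1770 at the looser limit, and 99 higher without TMM. Leaving out a library gave 14 to 161 higher and 36 to 168 lower, with 14, 18 and 24 higher and 36, 41 and 50 lower without ESC replicate 1, 2 and 3, and 65, 91 and 161 higher and 61, 99 and 168 lower without TET TKO replicate 1, 2 and 3. With TET TKO libraries thinned to ESC depth there were 0 Notch genes and 150 higher and 176 lower over all genes. The changes that turned direction were those of Notch1 (−0.065 without TET TKO replicate 3, in a range of −0.065 to 0.46 over the libraries left out) and Dll1 (−0.18 without TET TKO replicate 1, in a range of −0.18 to 0.97). The cause of these differences was not tested.

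Correlations of deviations between same-numbered ESC and NP libraries were −0.107, 0.006 and −0.206, within or below the −0.167 to 0.193 of differently numbered ones. With TET TKO libraries they were −0.141, 0.468 and 0.263, against −0.509 to 0.325 for differently numbered ones. For ESCs 2 and 3 the same-numbered TET TKO library had the highest value, and for ESC 1 it did not. Whether the replicate numbers pair ESC and TET TKO libraries is therefore not settled here. With the replicate block, 5 Notch genes were higher in NPs, and in TET TKO ESCs 1 Notch gene and 2 genes of the wider list were higher, with 342 higher and 332 lower over all genes.

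Without division by gene length, the mean share of Notch4 among the receptors was 12.5%, 1.36% and 3.36% (ESCs, NPs, TET TKO ESCs), that of Notch3 41.5%, 40.9% and 45.1%, and that of Dll1, Dll3 and Dll4 together among the ligands 8.89%, 52.4% and 14.1%. The number of expressed Notch genes was 8 to 9 in ESCs and did not change in the other groups with any library left out. Counting error limits Hes5 in ESCs, and 3 libraries a group limit every p.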
